A study of Rattus norvegicus with 24 samples.

Results

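The 7 genes described here are haemoglobin and other red cell genes measured in whole rat liver: the globin genes Hba-a2, Hbb-b1 and Hbb, the haem enzyme gene Alas2, the chaperone gene Ahsp and the membrane genes Slc4a1 and Epb42. They were found by name among the 26278 gene names of the arrays, where 11 probes carry them. Of the 7 genes, 6 were bright enough to be tested, each with every probe well above background in all 24 rats and with no saturated probe. Epb42 was not tested, since its single probe was well above background in only 3 of 24 rats.

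The livers came from 24 male Wistar rats, 1 array per rat, read in 1 colour (Cy3) from RNA of flash-frozen tissue, in a diet model of non-alcoholic fatty liver disease. All rats were housed singly on Mazuri pellets until 6 months of age and then ate purified diets based on AIN76A for 12 weeks, so that they were 9 months old at the end. The 4 diets crossed copper, either below 0.3 mg/kg (low) or at 125 mg/kg (adequate, though the labels call it high), with sucrose at 30 or 10% of the diet, and 6 rats ate each. Adequate copper at the lower sucrose content served as the control. Carbohydrate was made up to the same amount with starch and dextrin. No allele or drug differed between the groups. All 8 hepatocyte genes looked at were measured, as the liver label requires. Between 30 and 10% sucrose at adequate copper 0 of 8 passed the test, where 20.9% of all genes did. The largest differences among them were -0.64 in Cps1 and -0.62 in Cyp2e1 (limma adjusted p = 0.0764 and 0.0818).

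Red cells mature from nucleated precursors through reticulocytes, which have lost the nucleus but still hold much messenger RNA, to erythrocytes, which hold very little. Haemoglobin is built from alpha and beta globin chains, each carrying a haem made in a pathway whose first step in red cells is run by Alas2. In an adult rat the marrow and spleen make red cells, and liver tissue contains blood in its vessels and sinusoids, so globin RNA measured in whole liver is commonly read as a sign of blood or reticulocytes in the sample. Copper is needed to move iron for haem, and anaemia is a textbook sign of copper deficiency.

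Levels are log2 ratios of a probe's signal to the 75th percentile of all signals on its array, so that 1 unit is a doubling between rats. They can be compared between rats for 1 probe and not between genes, because each probe has its own brightness. In a bulk sample such as this one, fewer cells of a type and less RNA per cell cannot be told apart. The 75th percentile of the signal ranged from 432.8 to 1284 over the 24 arrays, against a local background of 38 to 48.

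The arrays lay on 3 slides, and diets were spread unevenly over them. The rats given 30% sucrose were on slides 1 (all 6 low copper, 2 adequate copper) and 2 (4 adequate copper). Those given 10% sucrose were on slides 2 (4 low copper) and 3 (2 low copper, all 6 controls). Adequate copper with 30% sucrose and the control diet thus had no slide in common. A fit that holds slide constant can compare them only by way of the low copper diets.

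The sequences of the probes show which transcripts each value can come from. Some of those taken to lie inside a coding sequence are shown 5′ to 3′ as deposited, with a start codon (ATG) or a stop codon (TAG) in capitals. The Hba-a2 probe is printed from its start codon on, 43 of its 60 bases. The Slc4a1 probe and the dimmer Hbb probe also held a frame without an inner stop codon and are not shown. Being left out thus does not place a probe outside the coding sequence. Positions are of the whole probe on rn4.
Hba-a2, chr10:15585140-15585199, minus strand: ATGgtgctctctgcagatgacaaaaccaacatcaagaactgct
Hbb-b1, first probe, chr1:161597660-161597719, minus strand: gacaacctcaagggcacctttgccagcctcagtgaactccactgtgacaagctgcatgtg
Hbb-b1, second probe, chr1:161590854-161590913, minus strand: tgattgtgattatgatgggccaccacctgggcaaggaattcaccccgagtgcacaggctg
Alas2, chrX:39810353-39810412, plus strand: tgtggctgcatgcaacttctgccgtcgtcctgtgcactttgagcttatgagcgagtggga
Ahsp, chr1:187561484-187561543, plus strand: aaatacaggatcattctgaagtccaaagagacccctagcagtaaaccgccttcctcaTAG
Epb42, chr3:107808613-107808672, minus strand: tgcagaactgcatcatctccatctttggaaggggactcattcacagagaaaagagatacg

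The globin genes are near-identical copies in clusters on chromosomes 10 and 1, and for 3 of the 6 globin probes the array's annotation lists a transcript of a further globin gene. The Hba-a2 probe printed here also matches a further alpha globin transcript, while for the brighter Hba-a2 probe (chr10:15584360-15584419) the annotation lists only the RefSeq transcript now named Hba-a1. Of the Hbb-b1 probes, the second also matches Hbb-bs, a neighbouring beta globin gene. The brighter probe of Hbb (chr1:161584872-161584931) also matches the Hbb-b1 transcript, so Hbb and Hbb-b1 are not fully separate measurements. Alas2, Ahsp, Slc4a1 (chr10:91455352-91455411) and Epb42 each have probes listed for a single gene. The levels given for each gene are those of its brightest probe, which for Hbb-b1 is the first printed and for Ahsp lies further 3′ (chr1:187561567-187561626). No pair of the 11 probes shares a run of more than 8 bases, so probes named for different genes are not copies of each other.

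The upstream sequence of the globin genes is shown as a description, and its part in their levels from rat to rat was not tested. The 250 bases before the annotated start were taken from RefSeq (GRCr8), which held 5 of the 7 members; Ahsp and Slc4a1 were not among them. Capitals mark AGATAA and TGATAA, the letters bound by GATA factors such as Gata1, then CCNCNCCC, a form of the CACCC box bound by Klf1, and CCAAT, each searched on both strands.
Hba-a1 (Hba-a2 on the array), chr10:15842581-15842830, minus strand: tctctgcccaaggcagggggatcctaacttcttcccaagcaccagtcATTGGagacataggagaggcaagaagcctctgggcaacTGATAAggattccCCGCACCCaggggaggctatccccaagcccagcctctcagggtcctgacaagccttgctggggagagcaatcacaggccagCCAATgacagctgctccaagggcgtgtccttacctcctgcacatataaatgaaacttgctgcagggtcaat
Hbb-b1, chr1:167643521-167643770, minus strand: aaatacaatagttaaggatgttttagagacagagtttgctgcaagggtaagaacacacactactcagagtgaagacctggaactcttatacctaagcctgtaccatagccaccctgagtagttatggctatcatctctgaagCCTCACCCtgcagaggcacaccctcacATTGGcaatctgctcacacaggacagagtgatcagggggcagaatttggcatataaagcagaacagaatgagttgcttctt
Hbb, chr1:167663722-167663971, minus strand: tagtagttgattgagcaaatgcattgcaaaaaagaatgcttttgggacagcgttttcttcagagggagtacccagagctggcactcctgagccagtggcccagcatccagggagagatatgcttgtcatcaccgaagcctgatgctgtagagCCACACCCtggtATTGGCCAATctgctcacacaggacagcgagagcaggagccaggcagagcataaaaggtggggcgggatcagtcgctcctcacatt

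All 3 globin windows held a CCNCNCCC match, at -152 to -145 from the start in Hba-a1, -108 to -101 in Hbb-b1 and -98 to -91 in Hbb. Over all 33469 promoters of the table, 42.8% held this motif, so a match is common. Hba-a1 alone among them held TGATAA (-165 to -160), none held AGATAA, and either motif was in 16.9% of all promoters. The window of Alas2 is not described, because its annotated start was in doubt. CCAAT was found in all 3 globin windows, and in 34.0% of all promoters. In Hbb its matches on the plus and minus strands lay end to end. Epb42 held none of these motifs. These matches describe letters and not occupied sites.

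The globins were among the most variable genes from rat to rat. Hba-a2, an alpha globin gene, stood at 4.87, 6.13 and 7.24 (lowest, median and highest of 6 rats) on the control diet. With low copper at 10% sucrose it stood at 6.26, 7.37 and 7.85. On adequate copper with 30% sucrose the values were 5.43, 7.61 and 8.68, and on low copper with 30% sucrose 6.45, 7.31 and 8.58. All 4 diets overlapped, but 5 of 6 rats on adequate copper with 30% sucrose lay above every control rat. The highest rat of all, rat 5 on adequate copper with 30% sucrose, had 14.0 times the signal of the lowest, control rat 5. Within a diet the SD was 0.90, larger than that of 98.1% of the genes tested, whose median SD was 0.32.

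Hbb-b1, a beta globin gene, put the rats in nearly the same order (rho = 0.99). Its lowest, median and highest levels were 3.30, 4.42 and 5.75 on the control diet and 4.57, 5.75 and 6.39 on low copper with 10% sucrose. They were 3.50, 6.08 and 7.23 on adequate copper with 30% sucrose and 4.78, 5.94 and 7.27 on low copper with 30% sucrose. The control rats again included the lowest rat and overlapped every other diet. Hbb stood at 3.52, 5.12 and 6.34 on the control diet and, when copper was low at 10% sucrose, at 4.58, 5.91 and 6.57. At 30% sucrose it stood at 3.83, 6.36 and 7.26 with adequate copper and at 4.98, 6.2 and 7.44 with low copper. Both beta globins had a within-diet SD of 1.03.

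Alas2, the first enzyme of haem synthesis in red cells, had the widest range of the members, 25.7-fold from control rat 5 to rat 5 on adequate copper with 30% sucrose. It stood at -3.17, -1.95 and -0.93 on the control diet and at -1.69, -0.44 and 0.35 with low copper at 10% sucrose. On adequate copper with 30% sucrose it stood at -2.62, -0.28 and 1.51, and on low copper with 30% sucrose at -1.63, -0.35 and 1.12. In 5 of 6 rats fed low copper at 10% sucrose, and likewise in 5 of 6 fed 30% sucrose at adequate copper, the level exceeded that of every control rat.

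Ahsp encodes the chaperone that holds free alpha globin chains until they pair with beta chains. Its levels were tightest on the control diet, at -3.55, -2.95 and -2.74. Low copper at 10% sucrose gave -2.85, -2.13 and -1.31. At 30% sucrose, adequate copper gave -2.33, -2.05 and 0.14, and low copper -2.96, -2.18 and -1.29. All 6 rats on adequate copper with 30% sucrose lay above all 6 control rats, the only pair of diets without overlap for any of the 6 members among the 4 simple comparisons. How many of all genes lacked overlap there was not counted, and 18.4% of them passed as higher. Rat 5 on adequate copper with 30% sucrose stood far above the next, at 0.14 against -1.90.

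Slc4a1, the gene of the red cell anion exchanger (band 3), varied least, with a within-diet SD of 0.64. It stood at -3.88, -3.39 and -2.49 on the control diet, and at -3.52, -2.84 and -2.04 when copper was low at 10% sucrose. At 30% sucrose it stood at -3.35, -3.05 and -1.22 with adequate copper and at -3.21, -2.85 and -1.94 with low copper. The 4 diets overlapped broadly, and only rat 5 on adequate copper with 30% sucrose lay above every control rat within its diet. Epb42, whose protein 4.2 ties band 3 to the membrane skeleton, was well above background in rats 1 and 5 on adequate copper with 30% sucrose (-4.59 and -5.95) and in control rat 5 (-6.11). In the other 21 rats it was not well above background.

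**Figure D1:**
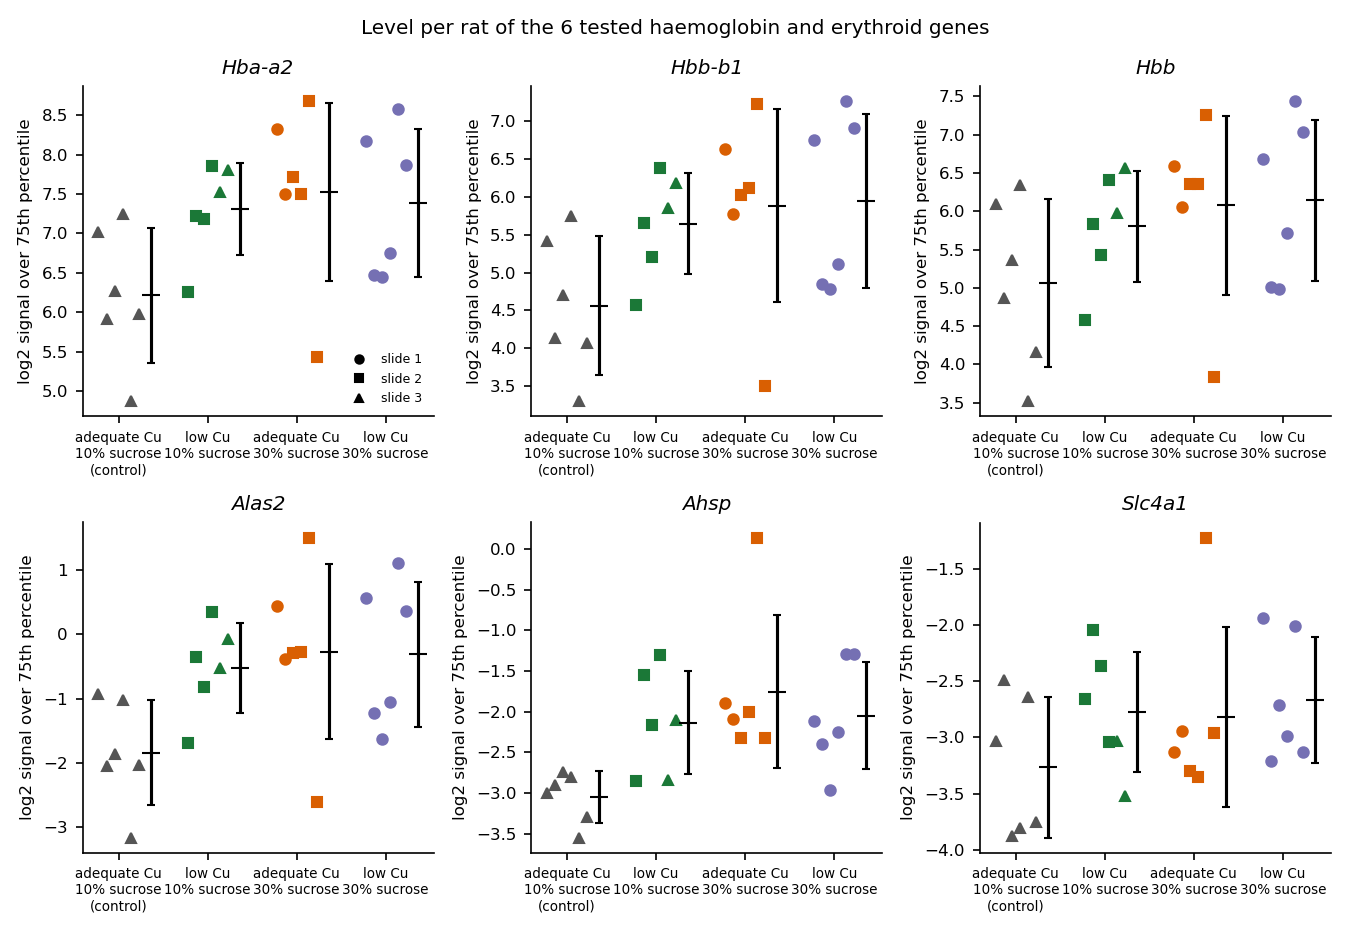
Level of each tested member per rat, as log2 signal over the array's 75th percentile, by diet; marker shapes give the slide, and the bar beside each diet is the mean ± SD of 6 rats. The control diet has the lowest mean in all 6 panels, rat 6 on adequate copper with 30% sucrose is low in the globins and Alas2 but not in Ahsp, and rat 5 of that diet stands alone in Ahsp and Slc4a1.

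In the order of the means, the control diet was last for all 6 members and the other 3 diets lay close together. For Hba-a2 the means were 7.53 ± 1.13 (adequate copper, 30% sucrose), 7.38 ± 0.94 (low copper, 30% sucrose), 7.31 ± 0.59 (low copper, 10% sucrose) and 6.21 ± 0.85 (control; SD, n = 6 each). The gap between the last 2 was 1.09, and those among the first 3 were 0.15 and 0.08, well inside the SDs. Alas2 had the same order, with gaps of 0.04, 0.21 and 1.33. For Hbb-b1 and Hbb the order of the first 2 was turned, with a gap of 0.06 in both. Differences between diet means made up 28.8% of the variation of Hba-a2 between rats, 26.1% of Hbb-b1, 17.4% of Hbb, 32.1% of Alas2, 38.2% of Ahsp and 13.5% of Slc4a1. The rest lay between rats on 1 diet. These shares are not corrected for the part that diet means take up by chance alone, and they include differences between slides.

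The comparison of 30 with 10% sucrose at adequate copper asks what the higher sucrose did to these genes when copper was not short. Ahsp and Alas2 rose, and the other 4 members did not pass the test. Ahsp rose by 1.29 log2 units, 2.45-fold (limma, SE 0.37, adjusted p = 0.0147), in 6 of 6 rats against the control mean. Alas2 rose by 1.58, 2.99-fold (SE 0.56, limma adjusted p = 0.0468), in 5 of 6 rats. That is 2 of 6 members, both higher, where 20.9% of all 18643 genes tested passed, 18.4% as higher and 2.48% as lower; a count of 2 of 6 is not set apart from that background. The background itself is lopsided under this scaling, with 3426 genes higher and 462 lower, and with quantile normalization it was 1693 and 816.

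The globins had differences of the same size without passing. Hba-a2 differed by 1.31 (SE 0.49, limma adjusted p = 0.0580), Hbb-b1 by 1.32 (SE 0.56, adjusted p = 0.0968) and Hbb by 1.02 (SE 0.56, adjusted p = 0.208), each higher in 5 of 6 rats than the control mean. Rat 6 on adequate copper with 30% sucrose was the exception in all 3, and without it Hba-a2 (1.73, adjusted p = 0.00783), Hbb-b1 (1.80, adjusted p = 0.0139) and Hbb (1.47, adjusted p = 0.0444) passed in the limma fit, giving 5 of 6 members. Hba-a2 also passed without control rat 1 (1.48, adjusted p = 0.0478) or control rat 4 (1.52, adjusted p = 0.0397), giving 3 members each time. Rat 6 was singled out by its low level in these same genes, so the higher count without it is no independent support. The share of all genes passing in these fits is not given here, and with all rats it was already 20.9%. Slc4a1 differed by 0.45, with a 95% interval from -0.27 to 1.17 (adjusted p = 0.395).

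The rise of Ahsp held in each of the 24 fits that left out 1 rat (0.92 to 1.41, highest adjusted p = 0.0346, which came without rat 5), and its other probe gave 1.38 (limma over all kept probes, adjusted p = 0.00606). The call of Alas2 was lost in 12 of those 24 fits, with adjusted p of up to 0.136 and differences of 1.23 to 1.61. These left out any of rats 1 to 5 on adequate copper with 30% sucrose, any of the low copper rats 2, 3 and 5 at 10% sucrose, or any of control rats 2, 3, 5 and 6. With slide as a block no member passed: the differences were 1.66 for Hba-a2, 1.72 for Hbb-b1, 1.60 for Hbb, 1.76 for Alas2, 0.92 for Ahsp and -0.19 for Slc4a1, with an adjusted p of 1 for each. Under that fit 0 of all 18643 genes passed, against 3888 without the block.

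For the effect of low copper at 10% sucrose, 0 of 6 members passed, where 18.6% of all genes passed, 18% as higher and 0.595% as lower. The differences were nonetheless all above 0: 1.09 for Hba-a2 (limma, SE 0.49, adjusted p = 0.137), 1.08 for Hbb-b1 (adjusted p = 0.213), 0.74 for Hbb (adjusted p = 0.436), 1.33 for Alas2 (adjusted p = 0.110), 0.92 for Ahsp (adjusted p = 0.0917) and 0.49 for Slc4a1 (adjusted p = 0.403). All 6 low copper rats were above the control mean in Hba-a2, Hbb-b1, Alas2 and Ahsp. The unadjusted limma p was under 0.05 for 3 of 6 members, Hba-a2, Alas2 and Ahsp, and for 5233 of all 18643 genes. In the fit of all probes the other Ahsp probe passed (1.02, adjusted p = 0.0364), and the main one did so without rat 5 on adequate copper with 30% sucrose, which enters the shared estimate of spread (0.92, adjusted p = 0.0219). When only the 2 diets compared were fitted, Alas2 (adjusted p = 0.0358) and Ahsp (adjusted p = 0.0336) passed, where 16% of all genes did.

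On slide 3 alone, which held 2 rats of the low copper diet and the 6 control rats, the same difference was 1.46 for Hba-a2, 1.46 for Hbb-b1, 1.22 for Hbb, 1.55 for Alas2, 0.58 for Ahsp and -0.01 for Slc4a1. In Hba-a2, Hbb-b1 and Alas2 both low copper rats exceeded every control rat of the slide, and how many of all genes did so was not counted. The globins and Alas2 were thus at least as far apart within the slide as over all rats, and Ahsp and Slc4a1 less so. Rats of 1 diet also differed between slides: the 2 low copper rats of slide 3 were above the 4 of slide 2 by 0.54 in Hba-a2 and 0.33 in Alas2 but stood at -0.50 from them in Ahsp and -0.75 in Slc4a1. This comparison shares its 6 control rats with the sucrose comparison at adequate copper, so that a low level in those rats enters both.

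Sucrose at low copper and copper at 30% sucrose, neither of which involves the control diet, gave small differences. At low copper, 30 against 10% sucrose changed no member past the threshold: the differences ran from 0.08 in Hba-a2 (95% interval -0.93 to 1.08) to 0.34 in Hbb (-0.81 to 1.49), and 3 of 6 rats lay above the other diet's mean in each member. At 30% sucrose, low against adequate copper gave -0.30 for Ahsp (95% interval -1.06 to 0.47) up to 0.15 for Slc4a1 (-0.57 to 0.87). For Hbb-b1, Hbb and Slc4a1 both intervals reached past the difference found against the control diet for the same factor, and for Hba-a2, Alas2 and Ahsp both ended below it. In both comparisons 0% of all 18643 genes passed by limma, with 1786 and 1839 at an unadjusted p under 0.05, and no member was among those. Within slide 1, low against adequate copper at 30% sucrose (6 against 2 rats) ran from -0.54 in Hba-a2 to 0.37 in Slc4a1, with overlap in every member.

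The interaction asks whether the sucrose difference depended on copper. It was -1.24 for Hba-a2 (limma adjusted p = 0.215), -1.02 for Hbb-b1, -0.68 for Hbb, -1.37 for Alas2 (adjusted p = 0.234), -1.21 for Ahsp (SE 0.52, adjusted p = 0.102) and -0.34 for Slc4a1. None of the 6 passed, where 20.8% of all genes passed, 18.9% as lower and 1.94% as higher, so the larger sucrose difference of these genes at adequate copper was not shown to differ from that at low copper. Averaged over copper, sucrose differed by 0.28 in Slc4a1 to 0.90 in Alas2, and averaged over sucrose, copper differed by 0.31 in Ahsp to 0.64 in Alas2. No member passed in either (0 of 6), and 0% of all genes did, with 2013 and 1640 at an unadjusted limma p under 0.05, among them Alas2 and Ahsp for sucrose and no member for copper.

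**Figure D2:**
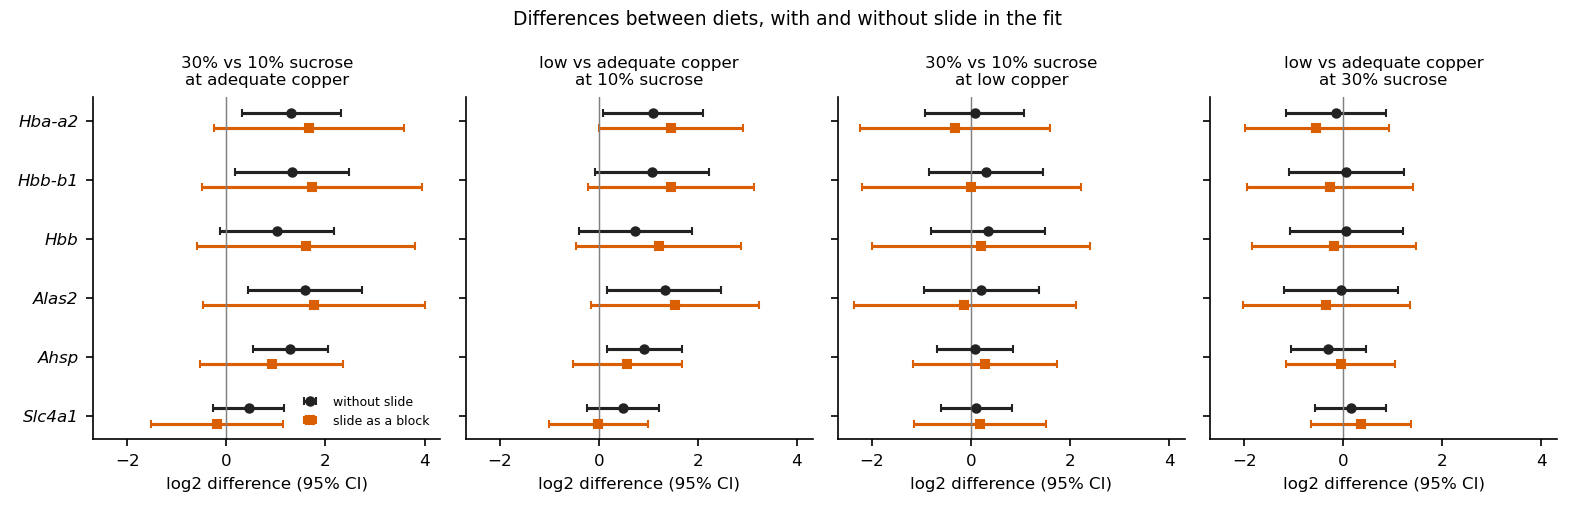
Differences of the 6 tested members in the 4 simple comparisons, as log2 differences with 95% confidence intervals of the limma fit without slide (circles) and with slide as a block (squares), 6 rats per diet. Both comparisons with the control diet have estimates above 0 without the block, from 0.45 to 1.58 for sucrose and from 0.49 to 1.33 for copper, and the intervals widen with slide in the fit.

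The members fell into a tightly linked set and 2 looser genes when rats were compared with each other. Among Hba-a2, Hbb-b1, Hbb and Alas2, the 6 pairs had Pearson r of 0.95 to 0.99 and Spearman rho of 0.96 to 0.99 over 24 rats (permutation test, adjusted p = 2.1e-05 and 1.7e-05, from the smallest p that 100000 resamples can give). With diet means taken out, r was 0.95 to 0.99 again, and without the pair of rats farthest from the median 0.92 to 0.98. It was 0.95 to 0.99 on slide 1, 0.98 to 0.99 on slide 2 and 0.93 to 0.99 on slide 3. Hbb-b1 and Hbb share a probe target, but Alas2 lies on another chromosome and shares no transcript with the globins.

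Between Alas2 and Hba-a2 the link was close to 1 for 1. The log2 ratio of Alas2 to Hba-a2 had an SD of 0.26 over all 24 rats, and that of Hbb-b1 to Hba-a2 0.22, while the levels themselves spanned 3.81 to 4.68 log2 units. On the control diet the Alas2 ratio averaged -8.06 ± 0.12, against -7.83 ± 0.23 with low copper at 10% sucrose, and -7.79 ± 0.32 (adequate copper) and -7.69 ± 0.22 (low copper) at 30% sucrose (SD, n = 6; only differences between diets have a meaning).

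Ahsp followed these 4 genes less closely. Its pairs with them had r of 0.72 to 0.83 and rho of 0.78 to 0.84, and 0.64 to 0.75 (rho 0.66 to 0.75) with diet means taken out, where permutation within diets gave adjusted p of 0.00118 to 0.0115 for r. On the slides taken singly r was 0.73 to 0.91. Its log2 ratio to Hba-a2 had an SD of 0.66. Rat 6 on adequate copper with 30% sucrose shows the gap: it had the second lowest Hba-a2 level of the 24 rats, 5.43, but an Ahsp level of -2.33, above every control rat.

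Slc4a1 was only loosely tied to the other members, or not at all. Its 5 pairs had r of 0.21 to 0.53 and rho of 0.04 to 0.20, where 1 r, with Ahsp, passed (permutation test, adjusted p = 0.0116) and no rho did. With diet means taken out r was 0.08 to 0.45, with none past the threshold. The r with Ahsp fell from 0.53 to 0.37 without the pair of rats farthest from the median, so it rests in part on those. On slide 3 all 5 were below 0, from -0.39 to -0.33. In all, 10 of the 15 pairs had an adjusted p under 0.05 with diet means taken out.

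**Figure D3:**
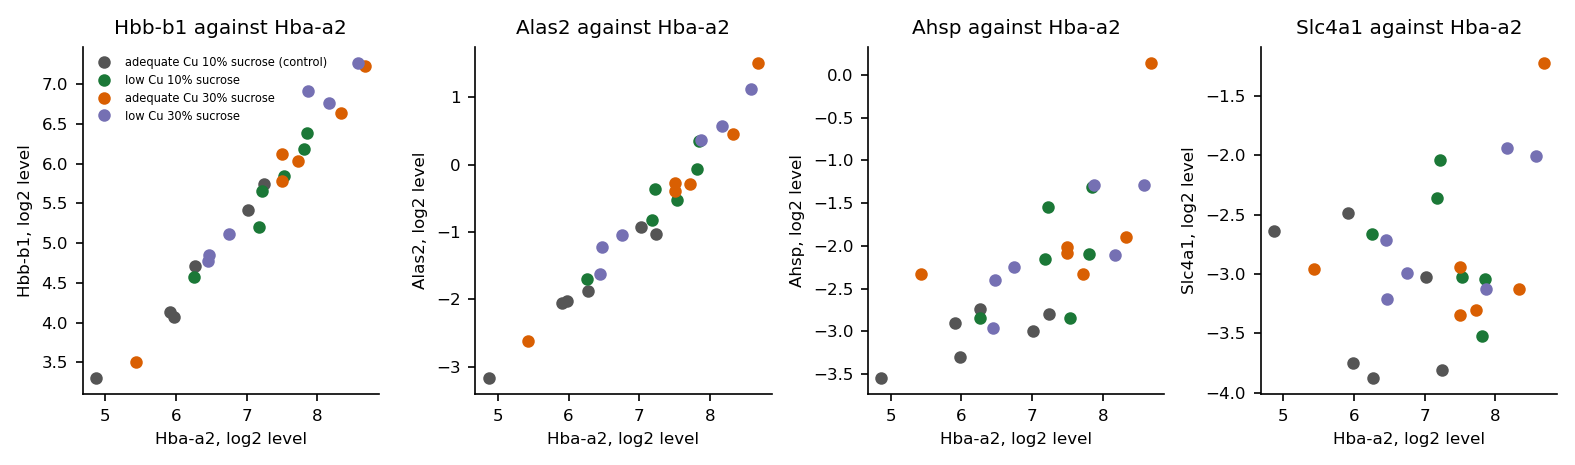
Hbb-b1, Alas2, Ahsp and Slc4a1 against Hba-a2, 1 point per rat coloured by diet, both axes as log2 level. Hbb-b1 and Alas2 lie along a line over all 4 diets (r = 0.99 and 0.98), Ahsp scatters more (0.75), and Slc4a1 has no clear line (0.29).

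The genes most like the members included 3 other globin genes. Against the mean level of the 6 members over 24 rats, the 10 highest correlations among 18643 genes belonged to LOC689064 (now Hbb-bs, a beta globin gene; r = 0.98), Hbe2 (an epsilon globin gene; 0.98), a transcript named ENSRNOT00000043132 (0.95), Cd52 (a surface peptide of lymphocytes; 0.94), LOC287167 (now Hba-a3, an alpha globin gene; 0.92), Ca2 (now Car2, carbonic anhydrase 2; 0.89), Add2 (beta adducin of the membrane skeleton; 0.88), LOC688972 (0.87), Bpgm (which makes the red cell's bisphosphoglycerate; 0.86) and Slc38a5 (an amino acid transporter; 0.85). The same 10 genes led with diet means taken out, at 0.80 to 0.98. The Hbe2 probe shares a run of 14 bases with an Hbb-b1 probe, the Hba-a3 probe 12 with an Hba-a2 probe, and none of the other 8 more than 8 bases with any member probe. These correlations are descriptions over shared rats.

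Of these 10 genes, 5 passed in 30 against 10% sucrose at adequate copper, all higher, where 18.4% of all genes passed as higher. They were chosen for following the members over the same rats, diets included, so their direction is not independent of the members'. Cd52 rose by 1.64 (limma, SE 0.40, adjusted p = 0.00603), and lay between -4.89 and -4.30 on the control diet and between -4.36 and -1.58 on adequate copper with 30% sucrose. The transcript ENSRNOT00000043132 rose by 1.71 (adjusted p = 0.0183) and Ca2 by 0.78 (adjusted p = 0.0487). Add2 was well above background in 0 of 6 control rats and 5 of 6 rats on adequate copper with 30% sucrose. Against a floor for the control rats it came to about 4.43-fold higher (limma adjusted p = 0.00382 for the measured difference). Slc38a5 came to about 2.72-fold higher in the same way (0 against 4 rats above background, limma adjusted p = 0.0239). These folds set the bright diet's mean against the lowest signal well above background on each dim array, or the probe's own where that was higher. They are not lower limits, since a control signal of -5.52 in Slc38a5 was still not called well above background. Add2 and Slc38a5 were bright enough to be tested only through the other diets, so their calls against the control diet are no independent support. Bpgm differed by 0.15 (adjusted p = 0.612) although it followed the members closely from rat to rat.

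The other late red cell genes were looked at as a list, of which 23 of 41 were measured. In sucrose at adequate copper 8 of 23 rose and 0 fell, where 18.4% of all genes passed as higher, with a median difference of 0.45 against 0.07 over all genes. Ermap, an erythroblast membrane protein, rose by 0.91 (limma, SE 0.16, adjusted p = 0.00106), Rhd, the Rhesus blood group protein, by 1.32 (SE 0.26, adjusted p = 0.0018), and Hbg1, a gamma globin gene, by 1.26 (SE 0.25, adjusted p = 0.00188). Kel, a blood group enzyme, was well above background in 0 control rats and came to about 3.11-fold higher against the same kind of floor (limma adjusted p = 0.00259). Xk and Kcnn4, named after their values were seen because they complete the 8 with Add2 and Ca2, rose by 0.68 and 0.66. Of the 8, Add2 and Kel were bright enough to be tested only through diets other than the control. Their calls against the control diet are therefore no independent support. For low copper at 10% sucrose 8 of 23 rose, where 18% of all genes did (median 0.39 against 0.05), and in the comparisons at low copper and at 30% sucrose 0 of 23 passed. In the interaction 8 of 23 passed as lower and 1 as higher, where 18.9% and 1.94% of all genes did.

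Those 8 genes differed in whether they followed the members. With diet means taken out, r with the member mean was 0.77 for Rhd, 0.84 for Ca2 and 0.85 for Add2, and their differences with slide as a block were 1.10, 0.97 and 1.86. In the other 5 it was -0.09 for Ermap, -0.03 for Hbg1, 0.18 for Kel, 0.15 for Xk and -0.12 for Kcnn4, and the difference with slide as a block was 0.14, 0.07, -0.19, 0.13 and -0.13. The first 3 thus kept differences near 1 or above with slide in the fit while the other 5 came to about 0; all had an adjusted p of 1 there. This split was seen in the values, among genes picked for passing, and has no test. The r and the difference with slide as a block both draw on differences between rats of 1 diet, so they are not independent. Outside the 8, Bpgm had r of 0.91 but differed by 0.15 without the block and 0.23 with it. Hbe2, with r of 0.97, differed by 1.45 and 1.86. The median of the whole list was 0.00 with the block.

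**Figure D4:**
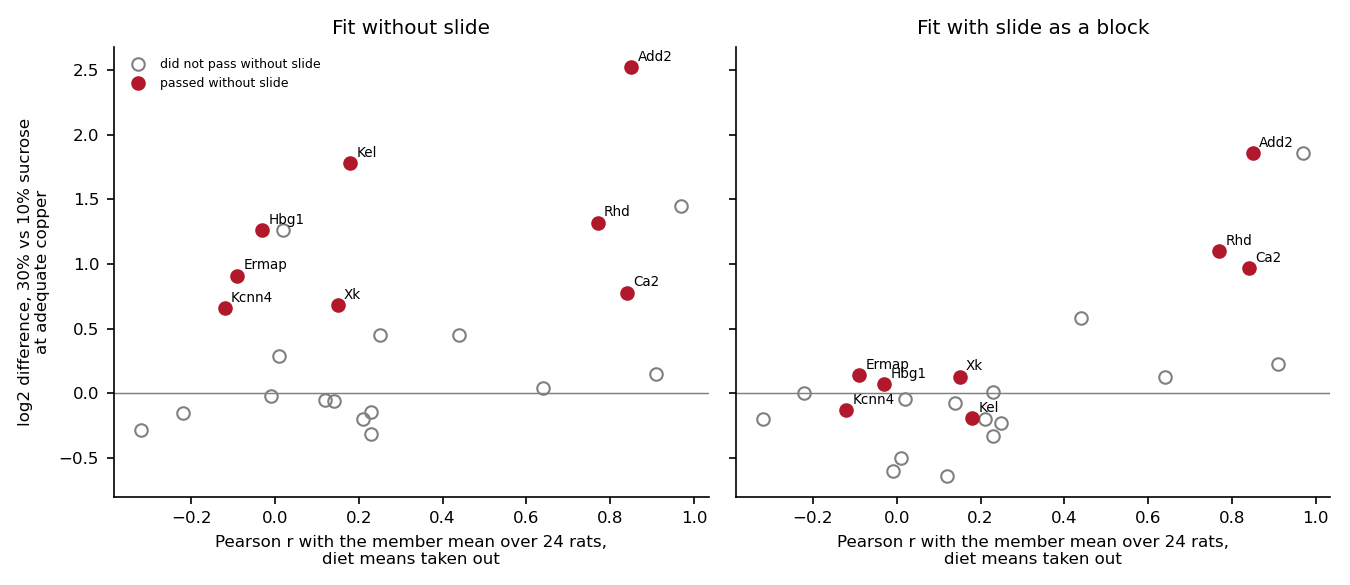
The 23 measured late red cell genes: log2 difference of 30 against 10% sucrose at adequate copper (left, without slide; right, with slide as a block) against Pearson r with the member mean over 24 rats after taking out diet means. Filled points passed without slide, and no gene passed with slide as a block. Rhd, Ca2 and Add2 lie at r of 0.77 to 0.85 and at 0.97 to 1.86 on the right, where no intervals are drawn. The 5 filled points at r of -0.12 to 0.18 come to between -0.19 and 0.14 there. The points of Add2 and Kel are drawn at measured means, though both were not well above background in any control rat.

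Regulators of red cell precursors were measured for 9 of 12 genes. In sucrose at adequate copper 3 of 9 rose, where 18.4% of all genes did: Klf1, the regulator that binds globin promoters (0.88, limma adjusted p = 0.00441), Bcl11a, a repressor of foetal globin (0.91, adjusted p = 0.0286), and Kit, the stem cell factor receptor (0.98, adjusted p = 0.0391). Klf1 was well above background in 2 of 6 control rats and 5 of 6 rats on adequate copper with 30% sucrose. Tfrc, the transferrin receptor that brings iron into precursors, differed by 0.44 (adjusted p = 0.109). The median was 0.44, against 0.07 over all genes. With diet means taken out, r with the member mean was 0.16 for Klf1, 0.07 for Bcl11a, 0.07 for Kit and -0.07 for Tfrc. With slide as a block Klf1 stood at 0.56, Bcl11a at 0.47 and Kit at -1.01.

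Of the haem synthesis genes used in all tissues, all 8 were measured. In sucrose at adequate copper 0 rose, and the median difference was -0.23. Alas1, the form of the first enzyme used outside red cells, differed by -0.68 (limma adjusted p = 0.0659), Fech, which inserts the iron, by -0.38 (adjusted p = 0.0780), and Cpox by -0.32 (adjusted p = 0.147). Without the block and with it, Alas1 and Alas2 differed in opposite directions (-1.37 and 1.76 with it). The genes that clear haemoglobin and haem were all 15 on the array measured, with 0 past the threshold and a median of 0.01. Hmox1, haem oxygenase 1, differed by 0.71 (adjusted p = 0.146), Slc48a1, a haem transporter, by -0.33 (adjusted p = 0.0777), Blvra, biliverdin reductase, by -0.40 (adjusted p = 0.135), and Tfr2, an iron sensor of hepatocytes, by -0.42 (adjusted p = 0.136).

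Markers of other cells in the same comparison are to be read against the 18.4% of all genes that passed as higher. Of the neutrophil genes 5 of 6 measured rose. S100a8 rose by 2.94 (limma adjusted p = 0.0163) and Cxcr2 by 1.90 (limma adjusted p = 0.000974). Csf3r rose by 1.54, Camp by 0.97 and S100a9 by 2.75, and Mpo differed by 0.42 without passing. With slide as a block S100a8 stood at 3.26, S100a9 at 2.9 and Cxcr2 at 1.5. Camp came to 0.5, Csf3r to 0.19 and Mpo to -0.38 in that fit. The neutrophil genes thus did not all keep their differences with slide in the fit. Cxcr2 was well above background in 1 of 6 control rats and 5 of 6 rats on adequate copper with 30% sucrose, so its difference rests largely on dim signals. The unlogged levels of the 6 were also averaged in each rat and the mean was logged, which gives the brightest probes the most weight. This mean level ran from -4.24 to -3.25 in the control rats and from -2.85 to 1.72 on adequate copper with 30% sucrose, on a log2 scale. Among platelet and megakaryocyte genes 2 of 6 rose, Ppbp (0.89, adjusted p = 0.00298) and Gp5 (0.88, adjusted p = 0.00812). The mean level of all 6, taken in the same way, ran from -3.15 to -2.5 against -2.79 to -1.33. T, B and NK cell genes had 3 of 7 higher, with Lck at 1.12 (adjusted p = 0.00188) and Cd3d at 1.04 (adjusted p = 0.00261), and mean levels of -3.18 to -2.63 against -2.35 to -1.63. The remaining one, Cd79a, was well above background in 0 control rats and was bright enough to be tested only through the other diets. Kupffer cell and macrophage genes had 1 of 9 higher, Csf1r (0.69, adjusted p = 0.0177). These came to 0.40 for Ppbp, 0.08 for Gp5, -0.07 for Lck, 0.27 for Cd3d and -0.11 for Csf1r when slide entered the fit as a block. Rat 5 on adequate copper with 30% sucrose, the highest rat in Ahsp and Slc4a1, was also the highest of all 24 in S100a8, at 3.18 against -3.53 to -0.92 in the other 5 rats of its diet. The part of these cells in the differences of the members was not tested.

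From rat to rat, these markers followed the members to different degrees. Pf4, platelet factor 4, followed them most among those named, with r of 0.77 after taking out diet means, and differed by 0.95 between the diets (limma adjusted p = 0.0818) and by 1.95 with slide as a block. The other platelet genes followed the members less, with r of 0.39 for Ppbp, 0.03 for Treml1 and 0.01 for Gp5. For S100a8 r was 0.37, for Cxcr2 0.19, for Lck 0.01 and for Cd3d -0.14. Endothelial genes had 1 of 6 higher, Cdh5 (0.85, adjusted p = 0.0016), stellate and fibroblast genes 2 of 7, Acta2 (0.71, adjusted p = 0.00481) and Col1a1 (0.57, adjusted p = 0.0390), and bile duct genes 0 of 4. With slide as a block Cdh5 stood at 0.29, Acta2 at 0.34 and Col1a1 at 0.23.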

How the data were processed

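Each of the 24 livers was measured on 1 one-colour Agilent array. Per the file headers, spots were read with Agilent Feature Extraction 10.7.3.1 (protocol GE1_107_Sep09, probe positions on rn4), and the authors deposited a processed intensity from which background and spatial trend had been removed array by array. The authors' series table holds a score centred at 0 with interquartile range 1 in each column. Its direction followed the scanner signal (lowest Spearman correlation 0.9955), but its scaling is unstated, so it served as an alternative only, returned to the signal's scale and logged. Deposited spot marks (unit other) served as marks only.

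Of 58717 non-control spots, 0.652% were marked as non-uniform or outliers and left out unless all spots of a probe were. The log2 signal minus the array's 75th percentile was averaged per probe. Probes well above background on at least 6 arrays were kept (21181 of 30367), and the brightest stood for each gene name (18643 genes). Precision is limited by the 6 rats per diet. The model, in limma 3.58.1 (R 4.3.3), had 1 mean per diet and its p-values were Benjamini-Hochberg adjusted over all genes at 0.05, two-sided, and the fit was tested on simulated data. Correlations had two-sided permutation p-values from 100000 resamples, adjusted over 15 pairs. Drawings were made with matplotlib.

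The members, gene lists, tests and alternatives were chosen with earlier results of these data known. Named genes are all members, up to 4 genes per list by p in 30 against 10% sucrose at adequate copper, and the 10 genes most correlated with the members over rats and after taking out diet means. S100a9 and Mpo were named besides these, to complete the neutrophil list. The fit of every kept probe was added after seeing the data, as was the likeness under other processing. Of the probes, 18004 had a current symbol through RefSeq accessions (13213 of them kept). The replicate number of the labels paired no animals. The result of 1 gene of the haem synthesis list is not reported here.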

Additional observations from a re-analysis of the deposited data

Results flagged for a closer look

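The highest or lowest rat of a diet was compared with the next rat, for 11 probes in 4 diets, which gives 44 groups of 6 rats. In 7 of them that rat lay far from the rest by Dixon's criterion, which chance alone meets in about 1 in 20 groups; probes of 1 gene and rats of 1 diet share their source, so these are not separate events.

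Rat 5 on adequate copper with 30% sucrose was high in both Ahsp probes (0.14 against -1.90 for the next rat, and -0.78 against -2.51) and in Slc4a1 (-1.22 against -2.94). Rat 6 of the same diet was low in both Hba-a2 probes (5.43 against 7.50, and 0.50 against 2.93) and in Hbb (3.83 against 6.06). Control rat 5 was high in Epb42 (-6.11 against -7.18), where the others were not well above background. No member passed the interaction of copper and sucrose.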

How the results depend on the processing

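The number of members passing in 30 against 10% sucrose at adequate copper was 2. It was 1 with normexp background correction, quantile normalization, no filter, a filter on all arrays, the replicate block, array weights, only both diets fitted, or without the pair of rats that had stood apart in inflammatory genes (rat 5 on adequate copper with 30% sucrose and rat 2 on low copper with 10% sucrose). It was 0 with the authors' table, slide as a block, slide as a random block, or without slide 2, and 1 to 5 with each rat left out. Ahsp was lost in the last 4 settings (0.92 to 1.20, adjusted p = 0.0586 to 1), and Alas2 in 12 of 14 (1.05 to 1.88). With the mean of probes the count was 2, and with an intensity trend 3. For low copper at 10% sucrose the count of 0 became 2 with only both diets fitted, where 16% of all genes passed, and 0 to 1 with each rat left out. The other 5 comparisons kept 0 members in every setting run. The count of 10 correlated pairs was 11 with the replicate block and 10 in the others. Replicate numbers did not pair rats (36 pairs of diets and numbers, r from -0.26 to 0.21, 10 over 0.1), and the block lost the call of Alas2 (1.58, adjusted p = 0.0631).

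Signs turned mostly where the difference was near 0; the cause was not tested. With normexp, Ahsp (-0.01) and Slc4a1 (-0.02) turned in sucrose at low copper, and Slc4a1 (-0.01) in copper at 30% sucrose. With slide as a block, Slc4a1 (-0.19), Kel (-0.19) and Kit (-1.01) turned in sucrose at adequate copper, Hba-a2 (-0.33) and Alas2 (-0.13) in sucrose at low copper, Hbb-b1 (-0.26) and Hbb (-0.18) in copper at 30% sucrose, and Slc4a1 in copper at 10% sucrose (-0.01), the mean sucrose difference (0.00) and the interaction (0.37). With the random block Hba-a2 (-0.03) turned in sucrose at low copper, and Hbb-b1 (-0.03) and Hbb (-0.02) in copper at 30% sucrose. With array weights Hba-a2 (0.11) and Alas2 (0.28), and without the pair of rats Hba-a2 (0.08), Alas2 (0.31) and Ahsp (0.08), turned in copper at 30% sucrose; Slc4a1 (0.13) turned in the interaction without the pair. Without slide 2, Hmox1 (-0.01) turned in sucrose at adequate copper, Hba-a2 (-0.29), Hbb-b1 (-0.07), Hbb (-0.13) and Alas2 (-0.01) in sucrose at low copper, Hbb-b1 (-0.26) and Hbb (-0.18) in copper at 30% sucrose, Slc4a1 in copper at 10% sucrose (-0.01) and in the interaction (0.37).

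With each rat left out, sucrose at low copper ran from -0.16 to 0.26 in Hba-a2, -0.07 to 0.48 in Alas2, -0.07 to 0.27 in Ahsp and -0.04 to 0.26 in Slc4a1. Copper at 30% sucrose ran from -0.57 to 0.08 in Hba-a2, -0.41 to 0.33 in Hbb-b1, -0.38 to 0.30 in Hbb, -0.51 to 0.31 in Alas2 and -0.45 to 0.08 in Ahsp. Over all genes, the 3888 calls for sucrose at adequate copper became 2345 with normexp, 2509 with quantile normalization, 2462 with the authors' table, 2267 with the filter on all arrays, 1226 with the random block, 1736 without slide 2 and 0 with slide as a block. The 3469 calls for copper at 10% sucrose became 2059, 2061, 1945, 1866, 2285, 0 and 0, and the 3884 of the interaction became 3657, 2574, 2397, 2294, 1807, 0 and 10. The 6 rats per diet and their uneven slides limit all differences, most of all those between diets that share no slide.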
